A study of Mus musculus with 22 samples.

Results

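The genes described here are 10 members of the interleukin-6 (IL-6) family pathway out of 53342 genes in the count tables. They are 4 cytokines (Il6, Il11, Lif, Osm), 4 receptor genes (Il6ra, Il6st, Lifr, Osmr), the transcription factor Stat3 and its feedback inhibitor Socs3. They were chosen by name, and all 10 had a row in the tables of both the tumors and the cell lines. The study sequenced mRNA of mouse pancreatic cancers driven by mutant K-Ras, with or without microRNA-21 (miR-21), a small RNA that lowers mRNAs matching its seed. Libraries came from 5 KO lines, 5 WT lines, 8 KO tumors and 4 WT tumors, where KO is the labels' miR21 KO and WT their wild type for miR-21. Every title starts with KPC and the mouse line is Bl6. The lines' recombined K-Ras and p53 alleles were checked by genotyping, so WT libraries also come from a mutant cancer. Age and the promoter of the Cre are not given in the sources used here. No library was treated. Each line was grown from the tumor of 1 symptomatic animal, passaged at least 8 times to lose fibroblasts, and collected at passage 10 to 14 in medium with 5% serum. Tumors were frozen whole. Going by the titles, 5 of the animals are represented by a line as well as a tumor.

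IL-6 family cytokines share the receptor chain gp130, the product of Il6st. IL-6 and IL-11 bind a private receptor first, while LIF and oncostatin M join gp130 to the LIF receptor or the oncostatin M receptor. JAK kinases on these receptors phosphorylate STAT3, which then enters the nucleus, switches on genes and raises Socs3, whose product blocks the same receptors. In pancreatic cancer, fibroblasts and myeloid cells are known sources of these cytokines, and STAT3 is a known activator of the miR-21 gene. mRNA counts do not measure STAT3 phosphorylation.

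The mature mouse miR-21 strand is shown because 4 of the 10 members carry a match to its seed (bases 2 to 8, in capitals), which RefSeq places at chr11:86584120-86584141 on the minus strand of GRCm38.p6.
mmu-miR-21a-5p: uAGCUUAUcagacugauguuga
A 7mer-m8 site is ATAAGCT in the 3′ UTR, and an 8mer site is ATAAGCTA. The longest annotated 3′ UTR of each member (GENCODE vM21, build mm10, sense strand only) was searched. Il6ra held 1 8mer, which starts at base 2066 of 7102 and lies at chr3:89869077-89869106, minus strand. Il6 held a 7mer-m8 at base 1126 of 1668 (chr5:30019428-30019456, plus strand), and Il6st held one at base 4011 of 5641 (chr13:112508445-112508473, plus strand). Stat3 held a pair of them, at bases 1581 and 2279 of 3701 (chr11:100887201-100887229 and chr11:100886503-100886531, minus strand). The sites, with the match in capitals, read as follows.
Il6ra: tttgactttttATAAGCTAagtcaacaaag
Il6: tctcctaacagATAAGCTggagtcacaga
Il6st: aagtagaatcaATAAGCTgcaaaaaaaaa
Stat3, first site: ttagttatacaATAAGCTgaacttataaa
Stat3, second site: tctggagtcagATAAGCTccctaatggag
Of 20952 genes with a 3′ UTR searched, 2.11% held an 8mer and 7.21% held either kind of site. Long 3′ UTRs hold more sites: of the 2804 with at least 3000 bases, 23.8% had one. The 3′ UTRs of Il11, Lif, Osm, Lifr, Osmr and Socs3 held neither. A match is a description of sequence and was not tested as a site of action.

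The promoter of Socs3 is shown because its gene is the standard readout of STAT3. STAT factors bind the palindrome TTCNNNGAA, which reads the same on either strand. Among the 9 members with a RefSeq promoter (250 bases before to 50 after the start, GRCm38.p6), Socs3 held it, 154 bases before its start (chr11:117969502-117969530, minus strand, match in capitals).
Socs3: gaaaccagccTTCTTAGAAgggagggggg
The motif was in 8.30% of the 32851 promoters in the table. The stricter TTCCNGGAA, a subset of it, was in 1.15% of them and in no member.

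Library totals were 24547650 to 31118113 counts. Levels below are in CPM, counts scaled to library size with TMM factors. A count of 0 allows up to 0.122 CPM in the smallest library (3 counts over its raw total, without TMM factors, counting error only). Mir21a, the targeted gene, had 0 counts in all 22 libraries, so these mRNA libraries do not check the genotype labels. Its host gene Vmp1, an autophagy gene, ran from 358 to 475 CPM in KO lines and from 223 to 262 CPM in WT lines. These groups did not overlap (log2 fold change 0.65 ± 0.11 SE, adjusted p = 0.299), where 0.742% of genes did so in the higher direction. In tumors Vmp1 overlapped, at 417 to 689 CPM in KO and 351 to 517 CPM in WT (0.32 ± 0.19, adjusted p = 0.403). The lines held keratins and E-cadherin at high levels, with Krt8 between 1992 and 3704 CPM, while Epcam, another epithelial marker, was at 4.97 to 86.4 CPM in lines and 248 to 1155 CPM in tumors. The fibroblast genes Dcn and Lum and the myeloid genes Itgam and Adgre1 had 0 counts in all 10 lines. Tumors held 6 fibroblast markers at a summed 1215 to 8621 CPM and 7 myeloid markers at 217 to 881 CPM. The same lists summed to 2.20 to 14.6 and 2.82 to 6.86 CPM in lines.

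**Figure D1:**
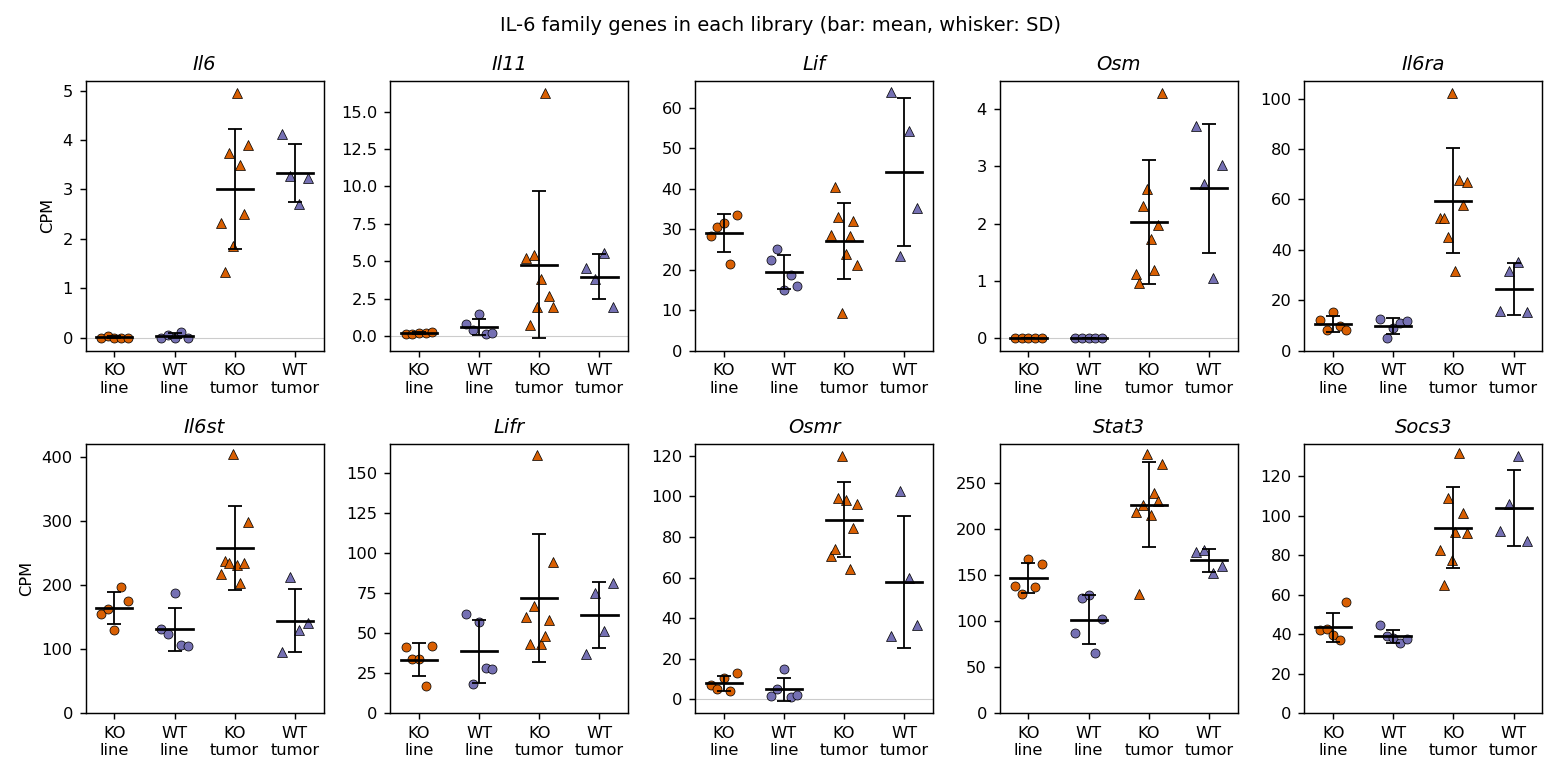
CPM of the 10 genes in each of the 22 libraries (points), by group on the x axis, with the mean (bar) and SD (whisker). Il6 and Osm are at or near 0 in lines and above 0 in all 12 tumors, and all 5 KO lines lie above all 5 WT lines for Stat3.

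The cytokine genes were at unlike levels in the lines. Osm, encoding oncostatin M (chr11:4236420-4241026), had 0 counts in all 10 lines. Its neighbour Lif, encoding leukemia inhibitory factor (chr11:4257557-4272514), had 15.0 to 33.5 CPM in every line. Il6 (chr5:30013114-30019981) had 1 count over the 5 KO lines and 4 counts over the 5 WT lines. Il11 (chr7:4772373-4782859) was low in lines, from 0.140 to 0.284 CPM in KO lines and from 0.154 to 1.45 CPM in WT lines. So of the 4 cytokine mRNAs, Lif was the one these cancer cell lines held in quantity.

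In the tumors all 4 cytokines were measured. Il6 was 4.13, 3.27, 2.69 and 3.24 CPM in WT tumors, and in KO tumors it ran from 1.32 through a median of 2.998 to 4.95 CPM. Osm was 3.71, 2.69, 1.06 and 3.02 CPM in WT tumors and 0.974 to 4.28 CPM in KO tumors (median 1.85). Both genes stood above every line in every tumor. Il11 was 4.55, 3.80, 5.55 and 1.94 CPM in WT tumors and 0.731 to 16.2 CPM in KO tumors, with a median of 3.24. Lif was 63.8, 23.3, 54.2 and 35.3 CPM in WT tumors and 9.27 to 40.3 CPM in KO tumors, with a median of 28.4, so the Lif ranges of tumors and lines overlapped.

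WT tumors were compared with WT lines, and KO tumors with KO lines, in 1 fit of all 22 libraries. In bulk samples, more cells of a type and more RNA per cell cannot be told apart. Il6, Il11, Osm, Il6ra, Osmr, Stat3 and Socs3 rose in tumors of both genotypes, Lif rose in WT tumors, and Il6st and Lifr rose in KO tumors. In all, 8 of 10 members rose in the WT comparison, where 28% of 18662 tested genes were called higher and 18.5% lower. In the KO comparison 9 of 10 rose, where 34.2% of genes were called higher and 22.9% lower. No member fell. The members' median log2 fold change was 1.37 in WT and 1.80 in KO, against 0.13 and 0.17 over all genes tested, and it is the same with Osm at its lower bound. The median over all genes depends on scaling: it was 0.21 and 0.28 with RLE factors and 0.23 and 0.30 with upper quartile factors, and both counts of members stayed at 8 and 9. The groups did not overlap for 7 members in WT and 8 in KO, where 20.7% and 20.5% of genes did so in the higher direction.

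The next bounds and ratios use counts pooled over a group and divided by its raw total, without TMM factors. Against the limit set by 3 counts over a group of lines, Osm was at least 119-fold higher in WT tumors and at least 103-fold higher in KO tumors. For Il6 this ratio of tumors to lines was 115 in WT (95% interval 44.6 to 424, from 389 against 4 counts). In KO it was 466 (83.3 to 18416, from 719 against 1 count), and these intervals cover counting error only. On the TMM scale, mean Il6 was 3.33 against 0.0315 CPM in WT and 3.01 against 0.0070 CPM in KO. The adjusted p was 3.3e-06 for Osm and 1.2e-06 for Il6 in WT, and 1.8e-06 and 1.9e-07 in KO. Il11 was higher by 2.71 ± 0.73 (log2, SE) in WT tumors and by 4.57 ± 0.75 in KO tumors, with adjusted p of 0.00490 and 4.6e-05. Lif was higher by 1.18 ± 0.31 in WT tumors, with adjusted p = 0.00438. In KO tumors Lif differed from KO lines by -0.10 ± 0.26, with adjusted p = 0.762.

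The receptors were not alike. Osmr, the oncostatin M receptor chain (chr15:6813577-6874969), had the largest receptor difference between materials. It was 1.52, 4.84, 14.8, 1.04 and 1.94 CPM in WT lines and 31.0, 103, 60.0 and 36.8 CPM in WT tumors, so the lowest tumor was above the highest line. It was higher by 3.58 ± 0.60 in WT tumors (adjusted p = 8.9e-05) and by 3.49 ± 0.56 in KO tumors (adjusted p = 3.2e-05). Il6ra, which binds IL-6 itself (chr3:89864059-89913196), was 12.6, 4.80, 9.05, 10.9 and 11.8 CPM in WT lines and 15.9, 31.7, 35.2 and 15.4 CPM in WT tumors. The groups did not overlap, although the gap between 12.6 and 15.4 CPM was small. Its difference was 1.32 ± 0.33 in WT (adjusted p = 0.00273) and 2.49 ± 0.31 in KO (adjusted p = 1.8e-06).

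Il6st, the shared chain gp130 (chr13:112464070-112510086), was abundant in the lines already. It was 132, 124, 188, 107 and 105 CPM in WT lines and 95.4, 212, 129.8 and 141 CPM in WT tumors, ranges that overlapped (0.14 ± 0.22, adjusted p = 0.634). In KO tumors it ran from 204 through 235 to 405.5 CPM, above the 130.1 to 197 CPM of KO lines (0.65 ± 0.20, adjusted p = 0.00773). Lifr, the LIF receptor chain (chr15:7090614-7197489), was 62.1, 18.2, 57.0, 28.3 and 27.8 CPM in WT lines and 36.7, 75.1, 51.6 and 81.4 CPM in WT tumors, again overlapping (0.66 ± 0.40, adjusted p = 0.186). In KO tumors it ran from 43.1 through 58.9 to 161 CPM, above the KO lines at 41.1, 34.1, 34.0, 16.8 and 41.8 CPM (1.10 ± 0.36, adjusted p = 0.0133). The highest KO line and the lowest KO tumor were close, at 41.8 and 43.1 CPM.

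Stat3 (chr11:100885098-100939540) was 86.8, 125, 128, 65.2 and 102 CPM in WT lines and 175, 177, 152 and 159.8 CPM in WT tumors, without overlap (0.71 ± 0.19, adjusted p = 0.00494). In KO it was higher in tumors by 0.62 ± 0.17 (adjusted p = 0.00337), with KO tumor 2 (129.6 CPM) below all KO lines and the other 7 KO tumors above them. Socs3 (chr11:117966079-117970047) was 44.6, 39.0, 37.9, 35.8 and 37.6 CPM in WT lines and 92.4, 106, 130.4 and 87.3 CPM in WT tumors. It ran from 64.9 through 91.6 to 132 CPM in KO tumors and from 37.0 to 56.1 CPM in KO lines. Every tumor was above every line. The differences were 1.42 ± 0.17 in WT (adjusted p = 2.5e-06) and 1.11 ± 0.15 in KO (adjusted p = 5.7e-06).

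**Figure D2:**
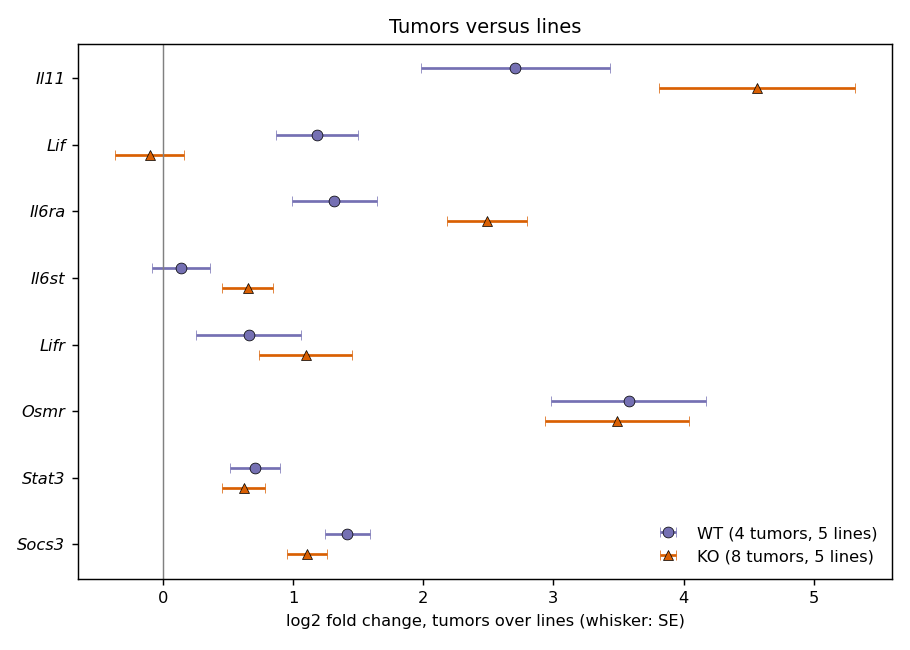
Log2 fold change of tumors over lines (x axis, whisker: SE) for 8 genes, in WT (circles, 4 tumors and 5 lines) and KO (triangles, 8 tumors and 5 lines). Il6 and Osm are left out because their counts in lines were 0 to 3. Osmr lies near 3.5 in both genotypes, and Lif is at 1.18 in WT and -0.10 in KO.

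Of the 5 animals with a line and a tumor, the tumor held more Il6, Il11, Osm, Il6ra, Osmr and Socs3 in 5 of 5, more Il6st, Lifr and Stat3 in 4 of 5, and more Lif in 3 of 5. With the animal as a fixed block, where only these 5 pairs carry the difference, 7 members were called in WT (3 animals) and 5 in KO (2 animals). Over all genes, that fit called 4179 higher and 3111 lower in WT, and 2351 higher and 1392 lower in KO. Lif in WT was then at 0.92 (adjusted p = 0.0898). In KO the block gave Il6st 0.49 (adjusted p = 0.249), Lifr 0.35 (adjusted p = 0.678), Stat3 0.17 (adjusted p = 0.634) and Socs3 0.76 (adjusted p = 0.0571), so these 4 calls were lost. A limma-voom fit with animal as a random block kept 8 and 9. It called 5932 genes higher and 3943 lower in WT, and 6546 higher and 4567 lower in KO.

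Levels of different genes can be set side by side only per length, here as mean CPM per kilobase of exons. In KO lines Stat3 (15.4 ± 1.74, SD), Socs3 (15.1 ± 2.57) and Il6st (14.8 ± 2.22) stood within 1 SD of each other, followed by Lif (6.68 ± 1.07), Lifr (3.11 ± 0.94), Il6ra (1.23 ± 0.35) and Osmr (0.649 ± 0.314). Il11 followed at 0.0945 ± 0.0285 and Il6 at 0.00288 ± 0.00645, with Osm at 0. WT lines had the order Socs3 (13.5 ± 1.16), Il6st (11.8 ± 3.04), Stat3 (10.7 ± 2.78), Lif (4.47 ± 0.98), Lifr (3.59 ± 1.81), Il6ra (1.14 ± 0.36), Osmr (0.399 ± 0.476), Il11 (0.289 ± 0.261) and Il6 (0.0130 ± 0.0208), with Osm at 0. Neighbours from Socs3 to Stat3, Lif and Lifr, and Osmr and Il11 were within 1 SD, taking the larger SD of each pair. In WT tumors Socs3 led (36.0 ± 6.66), then Stat3 (17.4 ± 1.29), Il6st (13.0 ± 4.43) and Lif (10.2 ± 4.20). Lifr (5.68 ± 1.92), Osmr (4.76 ± 2.69) and Il6ra (2.84 ± 1.20) came next, and Il11, Il6 and Osm lay between 1.904 and 1.15. Neighbours from Stat3 to Lif, and from Lifr to Osm, were within 1 SD in the same sense. In KO tumors Socs3 (32.45 ± 7.07) was followed by Stat3 (23.7 ± 4.81) and Il6st (23.3 ± 5.91), which did not differ beyond their spread. Osmr (7.30 ± 1.52), Il6ra (6.89 ± 2.41), Lifr (6.66 ± 3.68) and Lif (6.22 ± 2.13) formed a second level within 1 SD of each other, above Il11 (2.28 ± 2.36), Il6 (1.24 ± 0.50) and Osm (0.892 ± 0.476).

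The main question of the study is what changes without miR-21. In lines, 7 of the 10 members were abundant enough to be tested, and Il6, Il11 and Osm were not. No member was called at an adjusted p under 0.05 by edgeR, where 0.0143% of 14020 genes were called higher and 0% lower. At an unadjusted p under 0.05, 2 members were higher (Stat3 and Lif) and 0 lower, where 3.4% of genes were higher and 3.59% lower. The 7 tested members had a median log2 fold change of 0.33, and 6 of 7 were above 0, against a median of -0.03 over all genes tested. DESeq2 called 0 members as well.

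Stat3 was 138, 129.9, 167, 137 and 162 CPM in KO lines and 86.8, 125, 128, 65.2 and 102 CPM in WT lines. All 5 KO lines were above all 5 WT lines, although the nearest values, 129.9 and 128 CPM, were close. It was the only one of the 7 tested members without overlap, where 0.742% of genes did not overlap in the higher and 0.521% in the lower direction. Its log2 fold change was 0.53 ± 0.18 (adjusted p = 0.713), and the exact permutation test on log2 CPM gave p = 0.00794 (two-sided, unadjusted, the smallest that 252 relabellings allow). Stat3 overlaps Stat5a, a gene of the other strand with 9.66% as many counts, and whether counting used strand is not given in the sources used here. Stat5a itself was at 0.30 (log2).

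Lif was 28.3, 30.5, 31.4, 21.4 and 33.5 CPM in KO lines and 22.4, 25.0, 15.0, 18.8 and 15.9 CPM in WT lines, with 4 of 5 KO lines above all WT lines. Its log2 fold change was 0.58 ± 0.18 (adjusted p = 0.713, exact permutation p = 0.0238). Il6st was 156, 163, 130.1, 197 and 176 CPM in KO lines, overlapping the WT lines (0.33 ± 0.18, adjusted p = 0.720). Il6ra (0.11 ± 0.29), Lifr (-0.21 ± 0.36) and Socs3 (0.16 ± 0.13) also overlapped, with adjusted p of 0.783 or more. Osmr was 6.90, 5.22, 10.2, 3.83 and 13.2 CPM in KO lines. Its difference of 0.70 ± 0.69 was 1.76 without WT line 3, the line at 14.8 CPM, and was not called in either fit (adjusted p = 0.820 with that line). Il11, below the filter, was higher in WT lines on average by 0.54 on the log2(CPM + 0.5) scale, a difference that the exact permutation test put at p = 0.127.

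**Figure D3:**
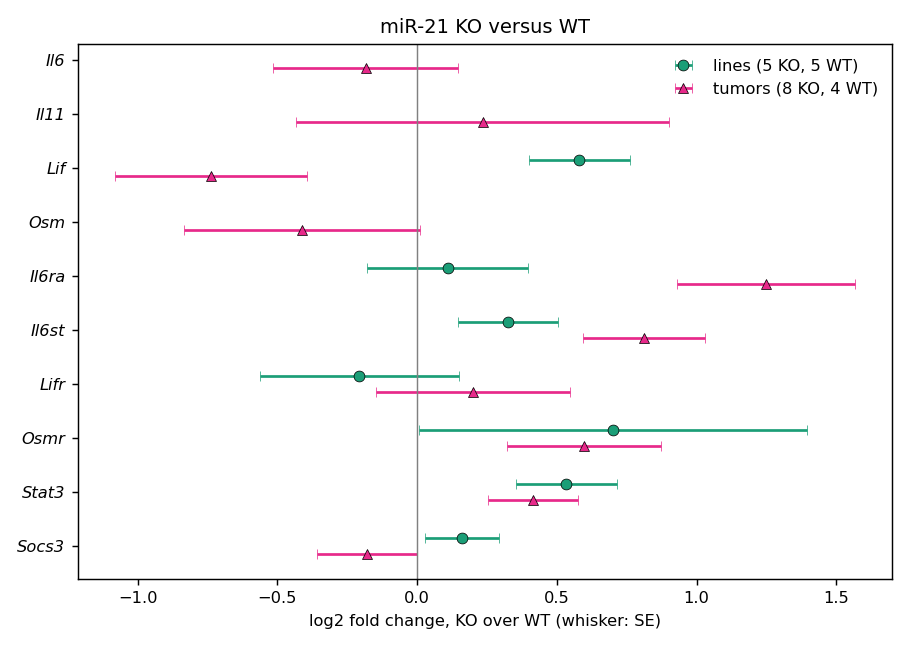
Log2 fold change of KO over WT (x axis, whisker: SE) for the 10 genes, in lines (circles, 7 tested genes) and tumors (triangles). Lif is at 0.58 in lines and -0.74 in tumors, and Il6ra (1.25) and Il6st (0.81) have the largest values in tumors. None passed an adjusted p of 0.05 with edgeR, the fit shown, and DESeq2 called Il6ra and Il6st in tumors.

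In tumors all 10 members were tested and none was called by edgeR, where 0.011% of 18125 genes were called higher and 0% lower. At an unadjusted p under 0.05, 3 members were higher (Il6ra, Il6st and Stat3) and 0 lower, where 8.34% of genes were higher and 8.39% lower. The groups of no member were free of overlap, against 1.12% of genes in the higher and 0.789% in the lower direction. The median over the 10 was 0.22, with 6 above 0, against 0.01 over all genes. DESeq2 called 2 members, Il6ra and Il6st, among 889 genes.

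Il6ra was 15.9, 31.7, 35.2 and 15.4 CPM in WT tumors and ran from 31.6 through a median of 55.1 to 102 CPM in KO tumors. In 7 of 8 KO tumors it was above all WT tumors. Its log2 fold change was 1.25 ± 0.32 (edgeR adjusted p = 0.139, DESeq2 adjusted p = 0.00639, exact permutation p = 0.00606). The antisense gene Gm42809, which overlaps it, had 0.847% as many counts. Il6st was 95.4, 212, 129.8 and 141 CPM in WT tumors and 204 to 405.5 CPM in KO tumors (median 235), again with 7 of 8 above all WT tumors. Its log2 fold change was 0.81 ± 0.22 (edgeR adjusted p = 0.145, DESeq2 adjusted p = 0.0130, exact permutation p = 0.00404). The other receptors overlapped more. Osmr was 64.2 to 120.0 CPM in KO tumors against 31.0, 103, 60.0 and 36.8 CPM (0.60 ± 0.28, adjusted p = 0.301, exact permutation p = 0.0323), and without WT tumor 2 its difference was 1.00 (adjusted p = 0.0817). Lifr differed by 0.20 ± 0.35 (adjusted p = 0.814).

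Stat3 in KO tumors ran from 129.6 through 228 to 281 CPM, with 7 of 8 above all WT tumors, which were at 175, 177, 152 and 159.8 CPM, and 1 below all of them. Its log2 fold change was 0.41 ± 0.16 (adjusted p = 0.234, exact permutation p = 0.0465). Socs3, its feedback gene, overlapped fully (-0.18 ± 0.18, adjusted p = 0.645). Lif was lower in KO tumors on average (27.1 ± 9.26 against 44.2 ± 18.3 CPM, SD, n = 8 and 4), with a log2 fold change of -0.74 ± 0.34 (adjusted p = 0.304), and 2 KO tumors were below all WT tumors. Il6 (-0.18 ± 0.33), Osm (-0.41 ± 0.42) and Il11 (0.23 ± 0.67) had adjusted p of 0.658 or more. The sign of Il11 rested on KO tumor 6 at 16.2 CPM: without it the value was -0.40.

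Cell type markers also differed in level between the tumor groups, with overlapping ranges and 0 called by edgeR. The 6 ductal markers summed to 3731 to 7826 CPM in KO tumors and 5843 to 13662 CPM in WT tumors, with log2 fold changes of 6 of 6 below 0. The 6 fibroblast markers summed to 1215 to 8621 and 1767 to 5251 CPM, with 6 of 6 above 0. Of these, Col1a1 (0.0095) and Pdgfrb (0.0203) were near 0. Over all genes tested, 51% were above 0. Myeloid markers were above 0 in 7 of 7 (median 0.24), lymphoid in 6 of 6 (0.49) and endothelial in 3 of 4 (0.33). The 6 acinar markers summed to 27.1 to 1948 and 14.6 to 375 CPM, with 5 of 5 tested above 0. The 5 skeletal muscle markers summed to 0.487 to 11.04 CPM in KO tumors and 2.99 to 860 CPM in WT tumors, highest in WT tumor 3, with 3 of 3 tested below 0 (median -5.61). The 4 mesothelial markers summed to 279 to 2136 and 373 to 1020 CPM, with 4 of 4 above 0 (median 1.33). These sums are mostly Msln, which averaged 927 CPM in KO tumors and 717 CPM in WT tumors. The lines reached such sums too, at 632 to 1567 CPM in KO and 343 to 601 CPM in WT. With the ductal marker mean as a covariate, Il6ra was at 0.71 and Il6st at 0.51 (adjusted p = 0.785 each). With the fibroblast mean, Il6ra was at 1.07, Il6st at 0.65, Stat3 at 0.19 and Lif at -0.31. Without the 3 tumors highest in acinar markers (KO tumors 4 and 8, WT tumor 4), Il6ra was at 0.88, Il6st at 0.63, Osmr at 0.34 and Stat3 at 0.30. KO tumor 4 had the highest acinar level together with the highest Il6ra, Il6st, Lifr, Osmr and Stat3 and the lowest Lif. By mean log2 CPM it was also the highest tumor in fibroblast (9.24), myeloid (6.63) and endothelial (6.15) markers. KO tumor 8, left out of that fit too, was next in fibroblast (9.05) and myeloid (6.42) markers. The part of cell makeup in the KO differences was not tested beyond these fits.

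The 3 members with an unadjusted p under 0.05 in tumors, Il6ra, Il6st and Stat3, each hold a miR-21 seed match, while Il6, which holds one too, was at -0.18. In lines Stat3 holds a match and Lif does not, and the 8mer gene Il6ra was at 0.11. Of the 5 members with a 3′ UTR of at least 3000 bases (Lif, Il6ra, Il6st, Lifr, Stat3), 3 hold a match. A relation between match and change among 10 genes was not tested.

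The KO difference in tumors minus that in lines was tested in the 22-library fit. No member was called, where 0% of genes were called in either direction by edgeR and DESeq2 called 67 genes, 0 of them members. At an unadjusted p under 0.05, 1 member was higher and 1 lower, where 5.26% of genes were higher and 3% lower. Lif had the smallest p among the members: its KO difference was lower in tumors than in lines by -1.29 ± 0.41 (log2, edgeR adjusted p = 0.446). Il6ra was next at 1.17 ± 0.43 (adjusted p = 0.474). The Stat3 difference was -0.09 ± 0.25, the Il6st difference 0.51 ± 0.30 and the Socs3 difference -0.31 ± 0.22 (adjusted p of 0.680 or more). Il11 was at 1.86 ± 0.97, Il6 at 1.46 ± 1.03, Lifr at 0.43 ± 0.53 and Osmr at -0.09 ± 0.73 (adjusted p of 0.641 or more). In lines Il6 and Il11 were below the count filter, and Il6 had 1 count over the KO lines and 4 over the WT lines. With each library left out, the Il6 value ran from 0.16 to 2.87. Osm was tested too, but both groups of lines were at 0, so its value has no meaning and is not given. These comparisons share libraries with each other: the WT tumors enter both the KO and the material comparison.

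Relations between members were computed across libraries. All 45 pairs in tumors and 21 pairs in lines were correlated on log2(CPM + 0.5), a choice made after the data were seen, with p-values adjusted over the 66. By Pearson's r, 5 pairs passed in tumors (3 positive, 2 negative) and 1 in lines, and by Spearman's rho none passed (lowest adjusted p 0.112). The points of a pair share a library and its scaling.

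In lines Lif had r = 0.21 with Il6st and -0.00646 with Lifr (permutation p = 0.551 and 0.985). In tumors Lif was inversely related to both. Its r with Il6st was -0.874 (permutation p = 0.00037, adjusted p = 0.0110), with rho -0.594 (permutation p = 0.0456). This r was -0.694 without the 2 tumors farthest from the median and -0.889 after group means were subtracted. With Lifr, the receptor of LIF, r was -0.80 (permutation p = 0.00287, adjusted p = 0.0316) and rho -0.58 (permutation p = 0.0518). Without 2 tumors that r was -0.374, so it rests on them. Its r with Osmr (-0.737) and Stat3 (-0.704) had adjusted p of 0.0524 and 0.0629, with rho of -0.755 for each. The tumor with the least Lif, KO tumor 4, had the most Il6st and Lifr, and the tumor with the most Lif, WT tumor 1, had the least of both.

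Of the 6 pairs of receptor genes in tumors, 2 passed, both positive. Il6st and Osmr had r = 0.887 (permutation p = 9e-05, adjusted p = 0.00594), rho 0.755 (permutation p = 0.00676), r = 0.775 without 2 tumors and 0.819 with group means subtracted. Il6ra and Il6st had r = 0.844 (permutation p = 0.0008, adjusted p = 0.0132), rho 0.664 (permutation p = 0.0221), 0.698 without 2 tumors and 0.611 with group means subtracted. Il11 and Socs3 had r = 0.812 (permutation p = 0.0017, adjusted p = 0.0224) and rho 0.783 (permutation p = 0.00369), and 0.543 without 2 tumors, where KO tumor 6 is the highest in both. In lines, Osmr and Stat3 had r = 0.868 (permutation p = 0.0005, adjusted p = 0.0110), rho 0.758 (permutation p = 0.0143), 0.95 without 2 lines and 0.846 with group means subtracted.

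**Figure D4:**
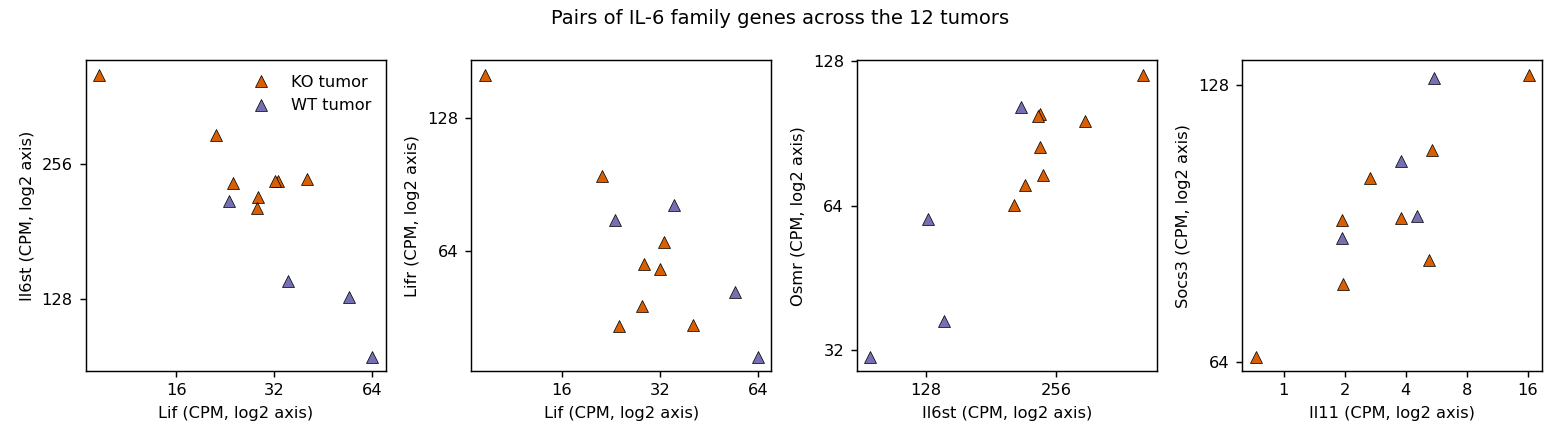
CPM of 4 pairs of genes in the 12 tumors on log2 axes, with KO tumors in orange and WT tumors in purple. Il6st falls as Lif rises (r = -0.874), Lifr does so mainly through the tumors at the ends, Osmr rises with Il6st (r = 0.887), and Socs3 rises with Il11 (r = 0.812).

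Another family held 12 relations of members with Socs3, Vmp1 or a marker mean, and none passed after adjustment (lowest adjusted p 0.174 by Pearson's r). Stat3 and its feedback gene Socs3 had r = 0.141 in tumors (permutation p = 0.661, rho 0.0629, permutation p = 0.852) and 0.407 in lines (permutation p = 0.234, rho 0.406, permutation p = 0.246). Stat3 and the miR-21 host gene Vmp1 had r = 0.705 in the 10 lines (permutation p = 0.0177, rho 0.733, permutation p = 0.0208), and 0.707 without 2 lines. With group means subtracted it was 0.137 (permutation p = 0.693), so no relation within genotypes was shown, with 5 lines in each. In tumors it was 0.334 (permutation p = 0.286, rho 0.245, permutation p = 0.443). Osm and the myeloid marker mean had r = 0.563 (permutation p = 0.0581, rho 0.469, permutation p = 0.128), 0.317 without 2 tumors and 0.626 with group means subtracted (permutation p = 0.0290, adjusted p = 0.348). Il6 and the fibroblast mean had r = 0.181 (permutation p = 0.577, rho 0.0909, permutation p = 0.784). Lif and the ductal marker mean had r = 0.581 in tumors (permutation p = 0.0440, rho 0.587, permutation p = 0.0513). This r was 0.324 without 2 tumors and 0.399 with group means subtracted. Lif and Socs3 had r = 0.652 in lines (permutation p = 0.0293, rho 0.733, permutation p = 0.021), and 0.567 with group means subtracted. In tumors this pair had r = 0.246 (permutation p = 0.441, rho 0.147, permutation p = 0.652). Il6 and Socs3 had r = 0.519 in tumors (permutation p = 0.0848, rho 0.462, permutation p = 0.135), and -0.10 without 2 tumors. Osm and Socs3 had r = -0.092 in tumors (permutation p = 0.775, rho -0.035, permutation p = 0.921).

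As a description, the genes most like 4 members across the 12 tumors were sought among 18125 tested genes by Pearson's r of log2(CPM + 0.5). For Stat3 they were Cpq (0.963), Mmp2, a gelatinase (0.963), and Prnp, the prion protein gene (0.957). For Socs3 they were Gzmc, a granzyme (0.941), Tnc, the matrix protein tenascin C (0.908), and Mlx (0.903). For Il6 they were Ubl5 (0.914), 2810025M15Rik (0.903) and B3gnt7 (0.872), and for Osm Sez6l2 (0.935), Gm49493 (0.907) and Gm15880 (0.90).

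Other genes of the pathway were grouped by role. Among further gp130 cytokine genes, Ebi3 and Clcf1 rose in tumors against lines in both genotypes. Clcf1 went from 67.0 to 121 CPM in WT, a log2 fold change of 0.85 (adjusted p = 0.0105), and from 58.5 to 97.8 CPM in KO (0.74, adjusted p = 0.00804). Ctf1, encoding cardiotrophin 1, rose in KO (0.90, adjusted p = 0.0420) and was at 0.95 in WT (adjusted p = 0.0698). Of 4 further receptor genes, 3 were tested: Cntfr and Il27ra rose in both comparisons, and Il11ra1, the IL-11 receptor, rose in KO (2.10, adjusted p = 0.00012) and was at 0.91 in WT (adjusted p = 0.0742).

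Downstream of the receptors, Jak3 rose in both genotypes (0.82 in WT, 0.62 in KO), and Jak2 fell in KO tumors (-0.53, adjusted p = 0.00112). Among other STAT genes, Stat2 and Stat4 rose and Stat5b fell in each, with Stat2 at 0.73 in WT and 0.63 in KO. Among 9 negative regulators, 4 rose in each comparison (the phosphatase genes Ptpn1 and Ptpn6 and the SOCS genes Cish and Socs2), and Ptpn11 fell, where 28% of all genes tested were called higher in WT and 34.2% in KO. The sheddase genes Adam10 and Adam17, whose enzymes cut the IL-6 receptor from the cell surface, were not called in either.

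Of 25 genes known to be induced by STAT3, 13 rose and 3 fell in WT tumors against WT lines, and 13 rose and 4 fell in KO. Over all genes tested, 28% were called higher and 18.5% lower in WT, and 34.2% and 22.9% in KO. The acute-phase genes Saa3 and Lrg1 had the smallest p values of the list: Saa3 averaged 0.0080 CPM in WT lines and 118 CPM in WT tumors, and 0.0153 and 223 CPM in KO. Lrg1 averaged 0.0802 and 43.4 CPM in WT, and 0.360 and 77.5 CPM in KO. Timp1, a metalloproteinase inhibitor, rose by 3.28 in WT and 2.68 in KO, and Il4ra by 1.68 in WT (adjusted p = 1.2e-06). Reg3b, a lectin of the injured pancreas, averaged 0.0897 CPM in KO lines and 208 CPM in KO tumors. The proliferation genes Myc, Birc5 and Ccnd1 fell in both, and Il1rn, the IL-1 receptor antagonist, fell in KO (-2.37, adjusted p = 0.00364). The median of the 25 was 0.95 in WT and 0.57 in KO.

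In the KO comparisons edgeR called no gene of these lists, in lines or in tumors. The STAT3-induced genes had a median of 0.13 in lines (18 tested, 13 above 0) and 0.03 in tumors (25 tested, 13 above 0). At an unadjusted p under 0.05, 2 of them were higher in KO tumors and 5 lower, where 8.34% of genes were higher and 8.39% lower. The 5 lower ones were Bcl3 (-0.63), Junb (-0.58), Myc (-0.70), Ccnd1 (-0.74) and Birc5 (-0.93), with adjusted p of 0.231 or more. In KO tumors the smallest p values were those of Lcn2, encoding lipocalin 2 (265 against 57.3 CPM, log2 fold change 2.18 ± 0.50, adjusted p = 0.128), and Cebpd, a transcription factor (75.9 against 32.3 CPM, 1.21 ± 0.30, adjusted p = 0.139). In KO lines they were those of Il4ra (0.54 ± 0.16, adjusted p = 0.713) and the kinase gene Pim1 (0.64 ± 0.29, adjusted p = 0.715). Il11ra1, Socs2 and Adam17 were at 1.04, -0.75 and -0.41 in KO tumors, with adjusted p of 0.195 or more. Il4ra and Lcn2 had the smallest p of their list for the KO difference in tumors minus that in lines (-0.74 and 4.27, adjusted p = 0.446 and 0.473). In the other lists the same rule gave Il11ra1 at 1.19, Cntfr at 0.78, Pias1 at 0.44, Ptpn2 at 0.33, Jak2 at -0.38 and Jak1 at 0.33. Cntf was at 0.75, Ebi3 at -0.59, Stat6 at 0.27, Stat5b at 0.42, Adam17 at -0.31 and Adam10 at -0.11 (adjusted p of 0.590 or more).

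**Figure D5:**
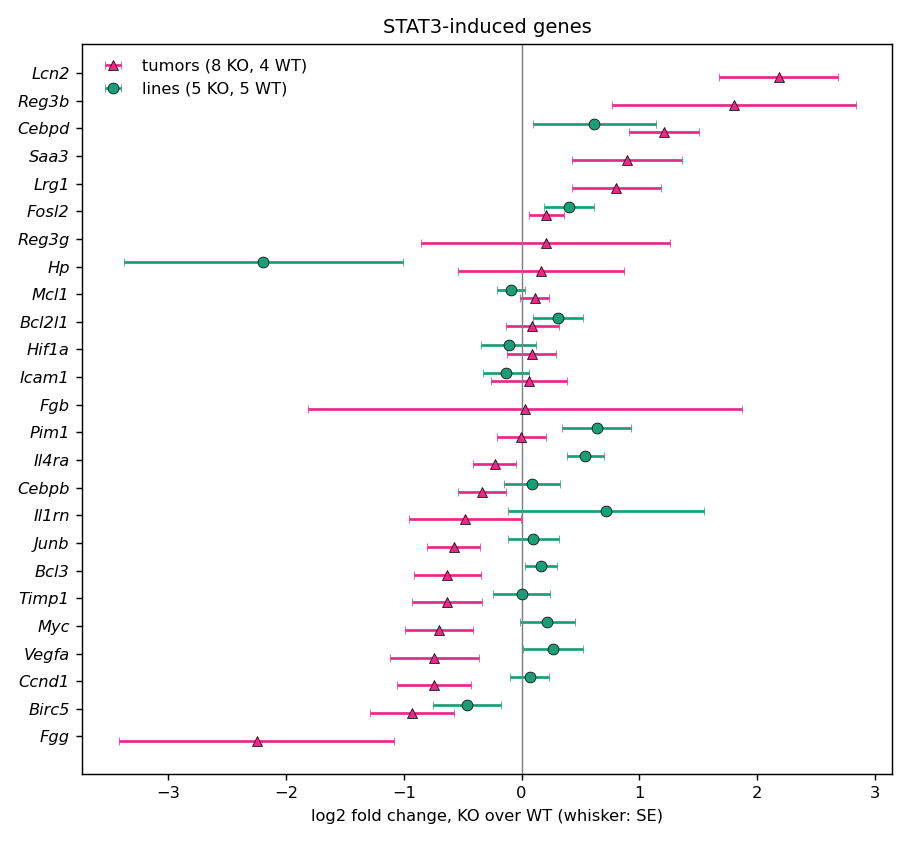
Log2 fold change of KO over WT (x axis, whisker: SE) for 25 genes known to be induced by STAT3, in tumors (triangles) and in lines (circles, 18 tested genes), ordered by the value in tumors. Values lie on both sides of 0, with Lcn2 at 2.18, Cebpd at 1.21 and Birc5 at -0.93 in tumors. None passed an adjusted p of 0.05 with edgeR, the fit shown.

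The smallest p values in the other lists gave the following for the KO comparisons. In lines Clcf1 was at -0.20, Il11ra1 at -0.11, Jak2 at 0.25 and Jak3 at 0.18, Stat5a at 0.30 and Stat6 at -0.18. Ptpn2 was at -0.36 and Ptpn1 at -0.16 there, with Adam10 at 0.16 and Adam17 at -0.08. In tumors Clcf1 was at -0.33, Cntfr at 0.35, Jak1 at 0.36 and Jak2 at -0.15, Stat5b at 0.45 and Stat5a at 0.39, Pias1 at 0.40 and Adam10 at 0.02. None of these passed (adjusted p of 0.241 or more).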

How the data were processed

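The authors deposited raw counts of reads for each gene. Per the submitters' processing notes, reads were made with bcl2fastq (1.9.0), trimmed with Trim Galore and aligned to mm10 with STAR. The counter, its strand setting and annotation are not given in the sources used here. Symbols, positions and 3′ UTRs came from GENCODE vM21, and 105 of 53342 IDs had no symbol (0.00944% of counts).

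edgeR 4.0.16 (R 4.3.3) was run with its default filter, TMM factors and robust quasi-likelihood tests, and p-values were Benjamini-Hochberg adjusted over all tested genes (threshold 0.05). Lines and tumors were fitted apart, tumors against lines in 1 fit of 22 libraries. The fits were also run on simulated counts with the same spread for every gene, a check of the code and not of these data. Exact permutation tests (20, unadjusted) relabelled mean log2(CPM + 0.5), and correlations used 100000 permutations. Alternatives were RLE and upper quartile factors, other filters, a non-robust fit, DESeq2 1.42.0, limma-voom (limma 3.58.1), 1 fit for all, marker covariates, animal blocks, and each library left out. Lines and tumors titled with the same animal share a number (5 animals, consensus correlation 0.287).

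The members and lists were chosen with earlier results of these data known. All 10 members are named in each comparison. Of each other list, up to 4 called genes with the smallest p are named, or the 2 with the smallest p where none passed. Some genes of this rule are not reported here. Genes called beyond those 4 were named after their values were seen. Within lines and within tumors each library is a separate animal by title, while the fit of 22 libraries holds 17 animals.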

Additional observations from a re-analysis of the deposited data

Results flagged for a closer look

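A library was marked where its gap to the nearest other of its group, relative to the group's range, passed Dixon's 95% value. Of 38 groups that varied, 6 were marked, and chance marks about 1 in 20. Il6 in KO line 2 was 0.0350 CPM, from 1 count, with the other KO lines at 0. Osmr in WT line 3 was 14.8 CPM, with the others at 1.04 to 4.84 CPM. In KO tumors, Il11 in KO tumor 6 was 16.2 CPM (others 0.731 to 5.42 CPM), and Stat3 in KO tumor 2 was 129.6 CPM (others 215 to 281 CPM). KO tumor 4 was marked for Il6st at 405.5 CPM (others 204 to 298 CPM) and for Lifr at 161 CPM (others 43.1 to 94.6 CPM).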

How the results depend on the processing

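The count of called members was 2 in KO against WT tumors with DESeq2 and 5 in KO tumors against lines with the replicate block of 5 animals. The other 131 counts over alternatives were within 1.5 times of the main ones. Values changed sign as follows, none of them called; the cause was not tested. In KO against WT tumors, Il11 was -0.19 (limma-voom), -0.30 (ductal covariate), -0.11 (permutation scale) and -0.40 to 0.46 with each library left out. Lifr was -0.0456 (without the 3 acinar-high tumors), -0.12 (ductal), -0.24 (fibroblast) and -0.0748 to 0.37 with 1 library left out. Il6 was 0.0634 (ductal). In lines, with each library left out, Il6ra ran from -0.0639 to 0.22 and Lifr from -0.39 to 0.0412. Lif in KO tumors against lines was 0.0325 (upper quartile) and 0.22 (replicate block). Il6st in WT tumors against lines ran from -0.11 to 0.31, and for the KO difference in tumors minus lines Osmr ran from -1.14 to 0.36 and Stat3 from -0.18 to 0.0483. The correlation of Lif with ductal markers in lines was 0.110, and -0.344 with group means subtracted. All genes called numbered 2 in lines (46 with DESeq2, 5 in the fit of all 22), 2 in tumors (889, 40, and 2 to 82 with 1 tumor left out) and 0 for the difference (67). In lines 3 members were below the count filter and were not tested.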
